A study of Mus musculus with 4 samples.

Results

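The genes described here mark retinal ganglion cells, the output neurons of the retina whose axons form the optic nerve, including the melanopsin cells among them. They were taken by gene name, with earlier results of these data known. The 10 genes were Opn4, Eomes, Adcyap1, Rbpms, Pou4f1, Pou4f2, Thy1, Nefl, Nefm and Nefh, each with a single entry among the 22863 genes listed. All 10 were among the 17784 genes tested, a gene being tested where 2 or more samples reached 10. By known role they comprise 3 genes of melanopsin cells, 4 pan-ganglion markers and 3 neurofilament subunits.

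RNA-seq was performed on 4 samples of C3H/f+/+ mouse eyes, 2 from objective day and 2 from subjective day, to ask how exposure to light changes gene expression at the same hour of the day. Both conditions used C3H/f+/+ mice, which make melatonin and carry intact Pde6b, so that their rods survive. Objective day mice had been in the light in the morning and were then kept dark for 1 hour before collection at ZT 6 (zeitgeber time, hours after lights on). Subjective day mice were collected at CT 6, the same predicted circadian hour, after 18 hours in darkness, although a second passage gives 30 hours for this condition. Each sample pooled 4 eyes, those of a male and a female mouse according to the labels, and held retina, RPE, choroid and posterior sclera. The age of the mice is not given in the sources used here. Values are read counts per gene described as adjusted, called adjusted counts below. Fold changes are those of objective over subjective day on the log2(value + 1) scale.

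Most ganglion cells relay the signals of rods and cones to the brain, whereas a small set of them makes the photopigment melanopsin and responds to light directly. These melanopsin cells carry information on ambient light to the suprachiasmatic nucleus, the site of the central circadian clock, and to the brain centre that drives the pupillary reflex. Light acts in them through a G protein of the Gq class, phospholipase C and TRPC channels, and they release glutamate together with the peptide PACAP. Neurofilaments are polymers of a light, a medium and a heavy subunit that fill large axons, and in the retina they are made mainly by ganglion cells and also by horizontal cells.

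For some of these genes, reads of 50 bases cannot always be assigned to a single place, and 3 stretches are shown for that reason. They come from GENCODE transcripts on GRCm38 and are written 5′ to 3′ on the transcribed strand. Pou4f1 (chr14:104466030-104466148, minus strand) and Pou4f2 (chr8:78435038-78435156, minus strand) share an identical run of 71 bases in their coding exons, which stands in capitals between flanks of 24 bases in lower case. The Nefh stretch (chr11:4940911-4941054, minus strand, coding) is the densest part of its tail repeat, and the capitals mark the codons of 8 Lys-Ser-Pro triplets, a motif whose serine is phosphorylated in neurofilament tails.
Pou4f1: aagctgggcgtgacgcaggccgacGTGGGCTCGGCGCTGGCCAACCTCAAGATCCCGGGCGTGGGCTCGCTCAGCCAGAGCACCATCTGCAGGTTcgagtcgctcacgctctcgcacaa
Pou4f2: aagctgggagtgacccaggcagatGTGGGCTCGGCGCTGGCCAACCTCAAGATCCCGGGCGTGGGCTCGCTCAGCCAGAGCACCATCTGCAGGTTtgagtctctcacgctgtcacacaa
Nefh: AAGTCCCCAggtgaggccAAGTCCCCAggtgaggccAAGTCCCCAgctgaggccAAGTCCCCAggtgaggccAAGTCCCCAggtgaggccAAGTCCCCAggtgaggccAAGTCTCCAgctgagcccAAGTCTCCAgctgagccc

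The transcripts of the POU-domain genes had 23 windows of 50 bases in common, of 4396 in Pou4f1 and 3155 in Pou4f2, and most of them lay in this run. In Nefh, 150 of 3945 windows (3.80%) occurred more than once within the gene, and its coding sequence of 3270 bases held 51 Lys-Ser-Pro triplets. Nefm held 4 such triplets in 2544 coding bases and Nefl held 0 in 1629. The gene for the light subunit lies inside the annotated span of the gene for the medium subunit on the opposite strand, with Nefl at chr14:68083863-68089095 (plus) and Nefm at chr14:68082590-68124846 (minus). A long Nefm transcript overlaps 1108 of the 3380 exonic bases of Nefl, and without strand the reads from these bases cannot be told apart. Whether the annotation used for counting held that transcript was not tested, and the values of both genes are uncertain to this extent.

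None of the 10 genes passed the test between objective and subjective day at an adjusted p of 0.05 (limma, Benjamini-Hochberg over all genes tested). Eomes, Thy1, Nefm and Nefh were higher in objective day at an unadjusted p of 0.05, by between 1.17-fold and 1.25-fold. Across all genes tested, 8.51% passed at the adjusted threshold, 1.06% as higher and 7.45% as lower in objective day. At the unadjusted threshold 25.4% of all genes passed and 9.51% passed as higher, compared with 4 of these 10 genes, all higher. The 2 samples of each condition did not overlap for 7 of the 10 genes, against a background of 56.1% of all genes. For 6 of them objective day was the higher condition, against 27.9% of all genes. The median log2 fold change of the 10 genes was 0.096 and that of all genes tested was 0.015. By role it was 0.14 for the melanopsin cell genes, 0.042 for the pan-ganglion markers and 0.27 for the neurofilament genes. In these whole-tissue samples, fewer cells of a type and less RNA per cell cannot be told apart.

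**Figure D1:**
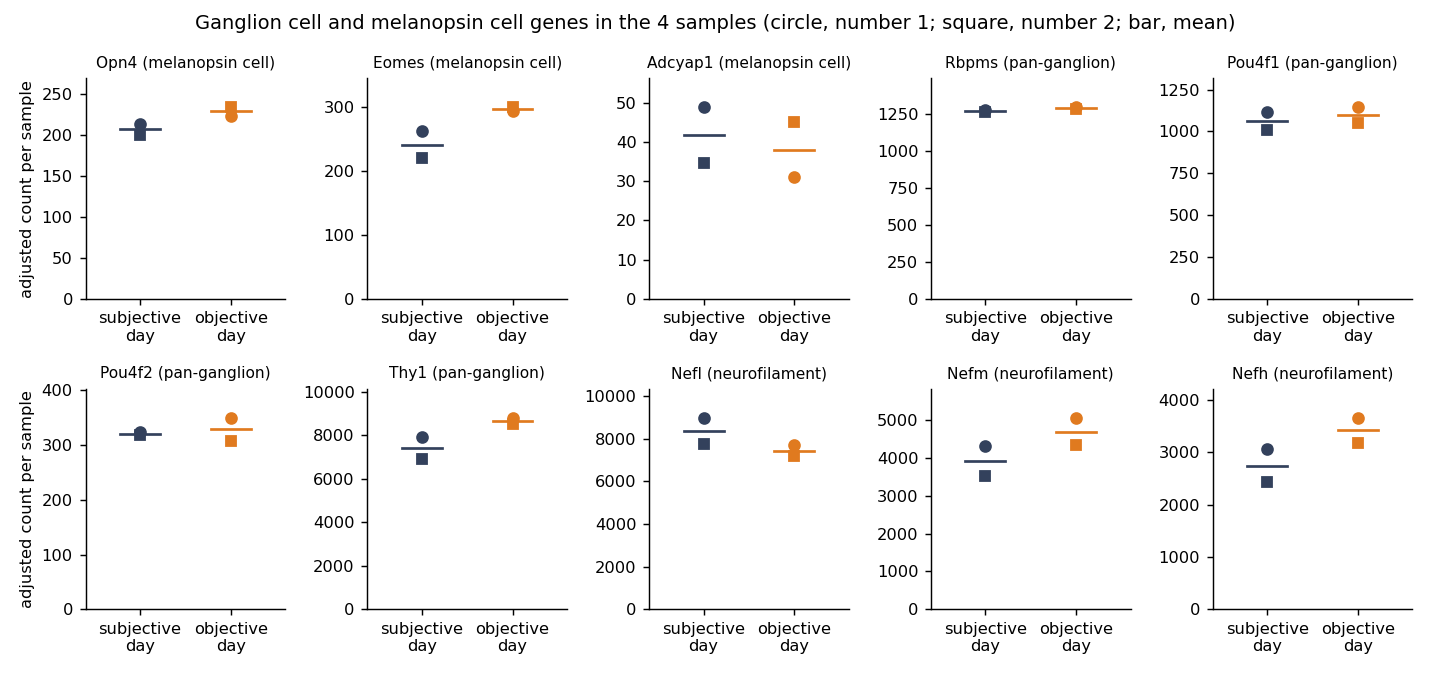
Adjusted counts of the 10 genes (y axis, from 0, own scale in each panel) in the 2 subjective day and 2 objective day samples (x axis), with circles for samples numbered 1, squares for samples numbered 2 and bars for the mean. Opn4, Eomes, Rbpms, Thy1, Nefm and Nefh lie apart with objective day higher, Rbpms and Nefm only narrowly. Nefl is the only gene of the 10 whose conditions lie apart with objective day lower, also narrowly. Adcyap1, Pou4f1 and Pou4f2 overlap.

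Opn4 (ENSMUSG00000021799, chr14:34590618-34600142, minus strand) encodes melanopsin itself. It had 224 and 234 adjusted counts in objective day compared with 214 and 201 in subjective day. Both objective day samples were above both subjective day samples, by a gap about as large as the spread within a condition. The means were 229 ± 7.28 and 207 ± 9.19 (SD, n = 2 each). The log2 fold change was 0.14 ± 0.12 (SE), with a 95% interval from -0.13 to 0.42 (limma, adjusted p = 0.485). The interval therefore spans fold changes from 0.915 to 1.34.

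Eomes (ENSMUSG00000032446, chr9:118478212-118486132, plus strand), also called Tbr2, is a T-box transcription factor that melanopsin cells need for their development and upkeep, and it is also made by some amacrine cells. It had 295 and 300 adjusted counts in objective day versus 263 and 220 in subjective day. The objective day samples were close to each other and higher, while the subjective day samples were apart from each other. The means were 298 ± 3.75 and 241 ± 30.3 (SD, n = 2 each). The log2 fold change was 0.31 ± 0.12 (SE), with a 95% interval from 0.017 to 0.60 (limma, adjusted p = 0.175). In its transcript, 80 of 3511 windows of 50 bases (2.28%) also occurred in other genes, while Opn4 shared none. Annotated antisense transcripts cover 118 exonic bases of Eomes and 130 of Opn4, whose reads cannot be told apart without strand. Tbr1, the T-box factor of another set of ganglion cells, had a log2 fold change of -0.020 and overlapping conditions.

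Adcyap1 (ENSMUSG00000024256, chr17:93199017-93206537, plus strand) encodes PACAP. With 31.0 and 45.1 adjusted counts in objective day against 48.9 and 34.6 in subjective day it was the lowest of the 10 genes. The conditions overlapped, and the samples within each differed by more than the means of the conditions did. Its log2 fold change of -0.13 had a 95% interval from -0.83 to 0.56 (limma, adjusted p = 0.816), which spans fold changes from 0.561 to 1.48. Of the PACAP system, a list of 8 genes with the PACAP receptor, related peptide and receptors and peptide-processing enzymes, 0 passed the adjusted test and 0 the unadjusted one (limma), and the list's median log2 fold change was 0.091. The receptor Adcyap1r1 had 274 and 298 adjusted counts in objective day compared with 267 and 276 in subjective day. Vip, the related peptide of some amacrine cells, had the largest log2 fold change of the list, 0.32 (limma, adjusted p = 0.199), and the receptor Vipr2 the smallest, with overlapping conditions.

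Genes of melanopsin light transduction, with other genes made by these cells, were followed in a list of 12, all of which were tested. 1 of them was higher and 0 were lower in objective day at the adjusted threshold, and the list's median log2 fold change was 0.078. The G protein, phospholipase C and channel genes below did not pass. Of the G protein subunits, Gnaq had a log2 fold change of -0.11, Gna11 of 0.12 and Gna14 of 0.086. Plcb4, the phospholipase C of this cascade, had -0.13, and the channel genes Trpc6 and Trpc7 had -0.22 and 0.18, with adjusted p-values from 0.217 to 0.807 in limma for these 6 genes.

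Rbpms (ENSMUSG00000031586, chr8:33782643-33929863, minus strand), an RNA-binding protein that labels nearly all ganglion cells and is also made by smooth muscle, was the steadiest of the 10 genes. It had 1298 and 1284 adjusted counts in objective day versus 1281 and 1264 in subjective day. The conditions did not overlap, but by a gap of only 0.0033 on the log2 scale. Its log2 fold change was 0.021, with a 95% interval from -0.13 to 0.17 (limma, adjusted p = 0.872). The 7 markers of smooth muscle and pericytes, which the tissue also holds, summed to 11804 and 11366 adjusted counts in objective day against 11682 and 10681 in subjective day, and their part in the Rbpms value was not tested.

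Pou4f1 (ENSMUSG00000048349, chr14:104461676-104467999, minus strand) and Pou4f2 (ENSMUSG00000031688, chr8:78433010-78436645, minus strand), also called Brn3a and Brn3b, are POU-domain transcription factors that specify ganglion cells. Pou4f1 had 1145 and 1048 adjusted counts in objective day compared with 1115 and 1006 in subjective day, with a log2 fold change of 0.048 (95% interval from -0.15 to 0.24, limma adjusted p = 0.763). Pou4f2 had 349 and 308 in objective day versus 323 and 317 in subjective day, with a log2 fold change of 0.036 (95% interval from -0.22 to 0.29, limma adjusted p = 0.871). Both genes overlapped between the conditions. The ratio of Pou4f1 to Pou4f2 was 3.28 and 3.40 in objective day against 3.46 and 3.18 in subjective day, and it overlapped too. Their relative Pou4f3 had 194 and 184 adjusted counts in objective day compared with 181 and 192 in subjective day.

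Thy1 (ENSMUSG00000032011, chr9:44043384-44048579, plus strand), a surface glycoprotein that is abundant on ganglion cells and is made also by other neurons, T cells and fibroblasts, had the highest level per length of the 10 genes. It had 8802 and 8528 adjusted counts in objective day versus 7902 and 6919.9 in subjective day. Both objective day samples were above both subjective day samples. The means were 8665 ± 194 and 7411 ± 695 (SD, n = 2 each). The log2 fold change was 0.23 ± 0.078 (SE), with a 95% interval from 0.047 to 0.41 (limma, adjusted p = 0.12). Of the other cells that make Thy1, the lymphocyte list was low, with 6 of its 10 genes tested and sums over the list of 143 and 159.8 adjusted counts in objective day against 171 and 165 in subjective day. Cd3e, Cd3g and Cd2 were below the filter. The 7 fibroblast genes summed to 17347 and 15814 in objective day compared with 20105 and 13841 in subjective day, so that the subjective day sample with the lowest Thy1 also had the lowest fibroblast sum, and the part of these cells in the Thy1 values was not tested.

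A wider list of 22 pan-ganglion markers, the 4 above included, gave 21 genes tested, of which 0 were higher and 1 lower in objective day at the adjusted threshold. The median log2 fold change of the list was 0.023, and 12 of the 21 were above 0, as were 9348 of the 17784 genes tested. The gene that fell was Isl1, a LIM-homeodomain factor that is also made by bipolar and amacrine cells, with 2137 and 2131 adjusted counts in objective day versus 2539 and 2558 in subjective day (log2 fold change -0.26, limma adjusted p = 0.038). It did not pass with the GC trend removed (-0.13, limma adjusted p = 0.427). The list ran from Elavl4, a neuronal RNA-binding protein, at -0.31 to Sncg, gamma-synuclein, at 0.31, and neither passed (limma, adjusted p = 0.076 and 0.155). Atoh7, which acts in the progenitors of ganglion cells and not in mature cells, was below the filter.

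Among the neurofilament genes the medium and heavy subunits had higher values in objective day and the light subunit lower ones, although no subunit passed the adjusted test. Nefm, the medium subunit, had 5049 and 4327 adjusted counts in objective day against 4311 and 3504 in subjective day. The conditions did not overlap, but the gap was 0.0055 on the log2 scale. The means were 4688 ± 511 and 3907 ± 570.3 (SD, n = 2 each). The log2 fold change of Nefm was 0.27 ± 0.11 (SE), with a 95% interval from 0.0029 to 0.53 (limma, adjusted p = 0.192).

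Nefh (ENSMUSG00000020396, chr11:4938754-4948064, minus strand), the heavy subunit with the long phosphorylated tail, had 3657 and 3176 adjusted counts in objective day compared with 3064 and 2424 in subjective day. Each objective day sample was above each subjective day sample, and the subjective day samples were further from each other than the objective day samples. The means were 3416 ± 340.0 and 2744 ± 452 (SD, n = 2 each). The log2 fold change of Nefh was 0.32 ± 0.12 (SE), with a 95% interval from 0.047 to 0.60 (limma, adjusted p = 0.141).

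Nefl (ENSMUSG00000022055), the light subunit on which the polymer is built, had 7694 and 7203 adjusted counts in objective day versus 8982 and 7737 in subjective day. Objective day was the lower condition, by a gap of 0.0079 on the log2 scale. The means were 7449 ± 347 and 8359 ± 880.5 (SD, n = 2 each). The log2 fold change of Nefl was -0.16 ± 0.085 (SE), with a 95% interval from -0.36 to 0.035 (limma, adjusted p = 0.277). The subjective day sample numbered 1 held the higher value of its condition for all 10 genes. Without it, subjective day is a single sample that is assumed to vary like the objective day samples, and 14.4% of all genes passed the adjusted test, 4.87% as higher. Of the 10 genes, 3 passed in that fit, all higher, namely Thy1, Nefm and Nefh, with log2 fold changes of 0.32, 0.42 and 0.49 (limma, adjusted p = 0.0195, 0.018 and 0.007), while Eomes had 0.44 and Nefl -0.055. Without the subjective day sample numbered 2, none of the 10 passed, and the log2 fold changes were 0.18 for Eomes, 0.13 for Thy1, 0.12 for Nefm, 0.15 for Nefh and -0.27 for Nefl. None of the 10 passed without either objective day sample. Without the objective day sample numbered 1 the log2 fold change was 0.15 for Nefm, 0.22 for Nefh and -0.21 for Nefl, and without that numbered 2 it was 0.38, 0.42 and -0.12.

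**Figure D2:**
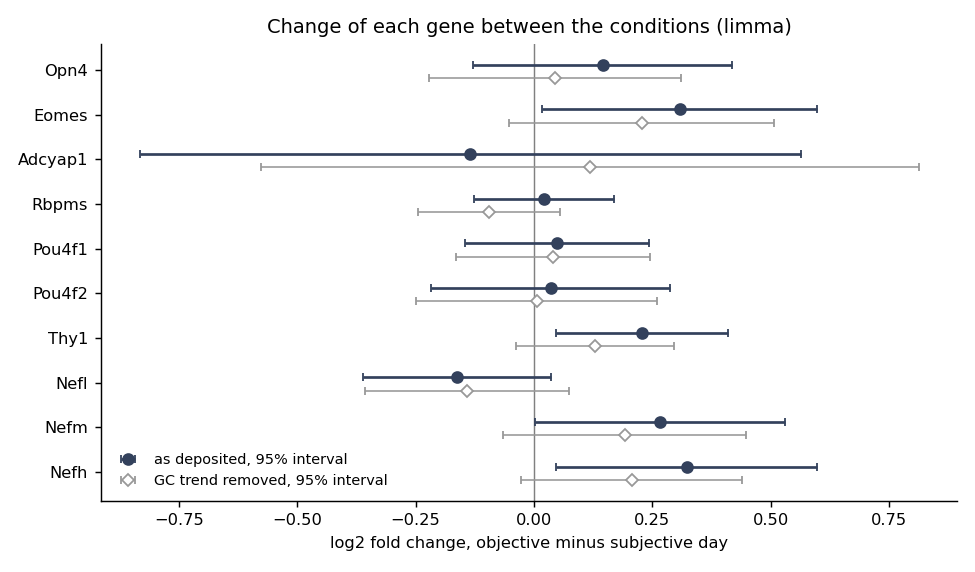
Log2 fold change of each gene, objective minus subjective day (x axis), as deposited (filled circles) and after removal of the GC trend (open diamonds), with 95% intervals from limma. Before the trend is removed, Eomes, Thy1, Nefm and Nefh have intervals above 0, and after it the intervals of all 10 genes include 0.

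The subunits were also set against each other within each sample. The ratios were chosen after the values had been seen, and because Nefl had the opposite sign to Nefm and Nefh, a larger distance in its ratios than in the levels follows from that choice. The ratio of Nefl to Nefh was 2.104 and 2.268 in objective day against 2.93 and 3.19 in subjective day, a log2 difference of -0.49. Every objective day sample had the smaller ratio, and the difference exceeded the spread within either condition (means of 2.19 ± 0.116 and 3.06 ± 0.184, SD, n = 2 each). The ratio of Nefl to Nefm was 1.52 and 1.66 in objective day compared with 2.08 and 2.21 in subjective day, a log2 difference of -0.43.

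The ratio of Nefm to Nefh was 1.38 and 1.36 in objective day versus 1.41 and 1.45 in subjective day, a smaller log2 difference of -0.056, again lower in objective day without overlap. With 2 samples against 2 the smallest two-sided p that an exact permutation test can give is 0.333, and all 3 ratios gave it. Per kilobase of transcript, Nefl made 48.4% and 50.5% of the summed neurofilament level in objective day against 56.3% and 58.0% in subjective day. Nefh made 19.5% and 18.8% in objective day compared with 16.3% and 15.4% in subjective day. The summed level itself overlapped, at 4707 and 4224 adjusted counts per kilobase in objective day versus 4717 and 3947 in subjective day. Leaving out each sample in turn kept the log2 difference between -0.55 and -0.42 for Nefl to Nefh and between -0.49 and -0.37 for Nefl to Nefm.

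**Figure D3:**
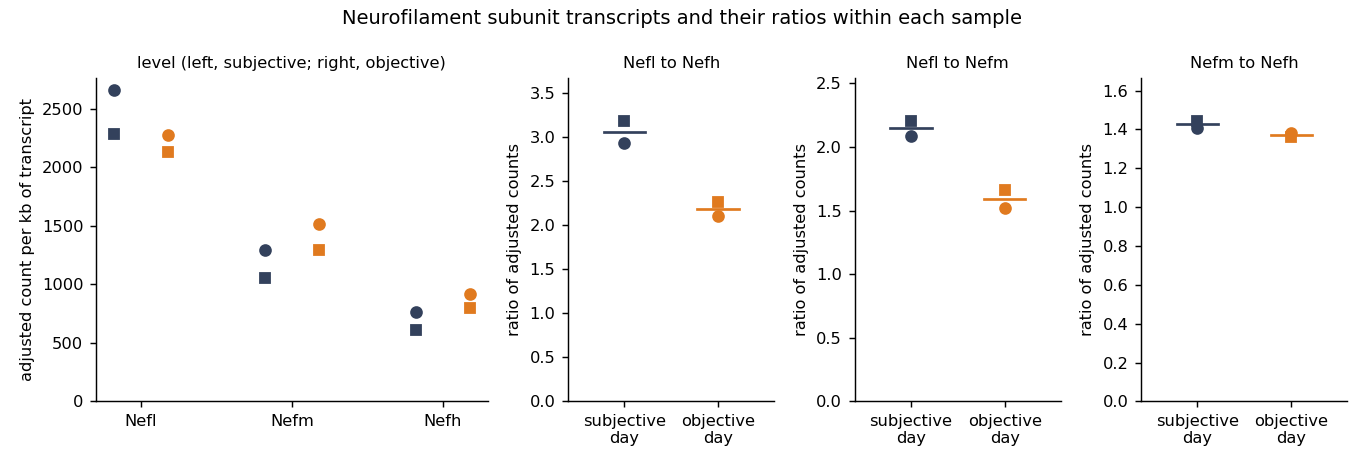
Left, adjusted counts per kilobase of transcript (y axis) of Nefl, Nefm and Nefh in each sample, subjective day to the left and objective day to the right of each pair. Right, ratios of adjusted counts within each sample (circle, number 1; square, number 2; bar, mean; axes from 0), in which Nefl to Nefh is 2.104 and 2.268 in objective day against 2.93 and 3.19 in subjective day.

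The other filament and axon genes were followed in a list of 18, of which 1 was higher and 1 lower in objective day at the adjusted threshold. Their median log2 fold change was 0.13 (0.075 with the GC trend removed), and 14 of the 18 were above 0, against 9348 of all 17784 genes. Mapt, which encodes the microtubule-binding protein tau, rose, with 7424 and 7174 adjusted counts in objective day against 6198 and 6111 in subjective day (log2 fold change 0.25, limma adjusted p = 0.047). Scn1a, a sodium channel of the axon initial segment, fell, with 2371 and 2379 in objective day compared with 2796 and 2979 in subjective day (log2 fold change -0.28, limma adjusted p = 0.035). With the GC trend removed, as described below, neither passed, at 0.14 for Mapt and -0.054 for Scn1a (limma, adjusted p = 0.427 and 0.776). Ina, alpha-internexin, which polymerises with the neurofilaments, had 5082 and 4943 in objective day versus 4463 and 4287 in subjective day, a log2 fold change of 0.20 that did not pass (limma, adjusted p = 0.089). Prph, peripherin, had a log2 fold change of 0.37 (limma, adjusted p = 0.192), and Gap43, a growth-cone protein, had 0.056 with overlapping conditions.

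To ask whether the melanopsin and neurofilament genes moved by more than the 4 pan-ganglion markers did, each was expressed as a percentage of a marker mean. This was the geometric mean of Rbpms, Pou4f1, Pou4f2 and Thy1 in the same sample. That mean was 1463 and 1373 in objective day against 1383 and 1294 in subjective day, a log2 difference of 0.083. Thy1, which other cells also make, had the largest log2 fold change of the 4, 0.23. Rbpms had 0.021, Pou4f1 0.048 and Pou4f2 0.036. Opn4 stood at 15.3% and 17.1% of it in objective day compared with 15.4% and 15.5% in subjective day, and the conditions overlapped. Eomes stood at 20.2% and 21.9% in objective day versus 19.0% and 17.0% in subjective day, without overlap. Nefl stood at 526% and 525% in objective day against 649% and 598% in subjective day, and Nefh at 249.9% and 231% against 221% and 187%. On this scale the log2 fold change was 0.062 for Opn4, 0.22 for Eomes, -0.22 for Adcyap1, -0.25 for Nefl, 0.18 for Nefm and 0.24 for Nefh, and none of them passed the adjusted test (limma, lowest adjusted p = 0.055, for Nefl). Scaled to Rbpms alone, Opn4 had 0.12, Eomes 0.29, Adcyap1 -0.16, Nefl -0.18, Nefm 0.25 and Nefh 0.30, and none passed.

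Levels per kilobase of transcript spanned a wide range. In subjective day the mean adjusted count per kilobase was 4272 for Thy1 and 2473 for Nefl, followed by 1225 for Rbpms and 1172 for Nefm, which did not differ beyond their spread. Nefh followed at 687 and Pou4f1 at 239. Pou4f2 at 99.8 and Opn4 at 96.1 again did not differ beyond their spread. Eomes was at 67.8 and Adcyap1 at 12.3. The Rbpms value rests on a transcript of 1039 bases, and longer forms would lower it.

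Fold changes in these libraries varied with the GC content of the transcript. With all genes split into 10 equal classes of GC content, the median log2 fold change ran from -0.44 in the class with least GC to 0.14 in that with most, with a Spearman correlation of 0.589 across genes, which are not independent replicates. Nefh has 58.4% GC, Rbpms 58.1%, Opn4 55.9%, Thy1 55.8%, Eomes 53.9% and Nefm 53.4%, and all 6 genes that were higher without overlap are in this range. Nefl has 48.9% and Adcyap1 42.8%. After removal of the GC trend in each sample the log2 fold changes were 0.21 for Nefh, 0.19 for Nefm, 0.23 for Eomes, 0.13 for Thy1, 0.044 for Opn4 and -0.14 for Nefl, and 0 of the 10 genes passed either the adjusted or the unadjusted limma test, against 0.93% and 12.4% of the genes in that fit. Rbpms then changed sign, to -0.095, and Adcyap1 to 0.12. The log2 differences of the ratios became -0.35 for Nefl to Nefh and -0.33 for Nefl to Nefm, still without overlap, and -0.015 for Nefm to Nefh, with overlap. Of the 10 companion genes that passed the adjusted test, 2 still passed, among them Gfap (log2 fold change -0.57, limma adjusted p = 0.0228). Calb1 changed sign, to 0.087, as did Elavl4, to 0.26. The list medians became 0.038 for the pan-ganglion markers, 0.031 for melanopsin signalling, 0.044 for the PACAP system and 0.13 for the rods.

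**Figure D4:**
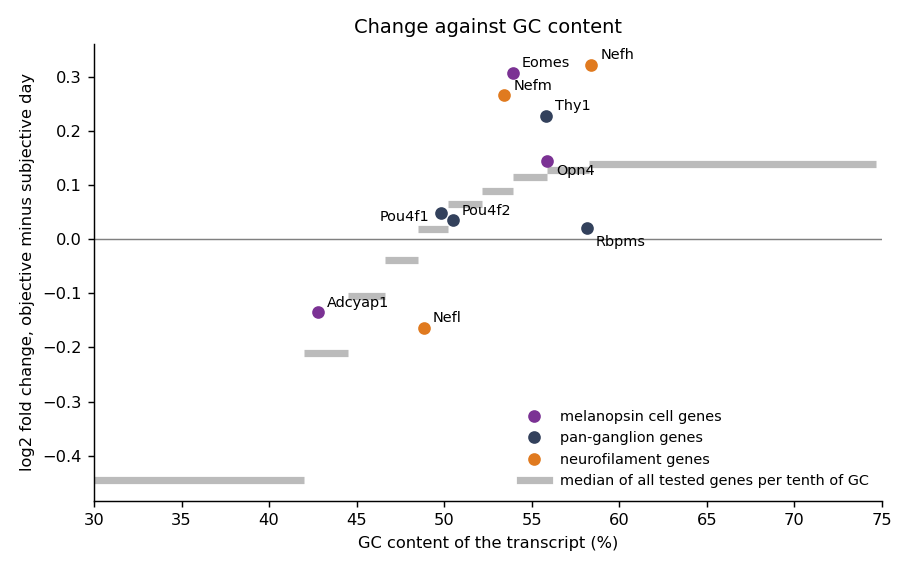
Log2 fold change, objective minus subjective day (y axis), against GC content of the transcript in percent (x axis) for the 10 genes, coloured by role, with grey bars for the median of all genes tested in each of 10 equal classes of GC content. The grey medians rise from -0.44 to 0.14. Nefl, Rbpms and Pou4f2 lie below the bar at their GC content and the other genes above it.

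Markers of neighbouring cells were measured in the same samples, and their part in the values above was not tested. Of 10 amacrine cell genes 0 passed the adjusted test and the median was 0.080 (0.019 with the GC trend removed). Tfap2a had the smallest log2 fold change, 0.0039, and the largest was that of Th, the rate-limiting enzyme of dopamine synthesis in cells that melanopsin cells contact (177 and 166 adjusted counts against 116 and 121, log2 fold change 0.53, limma adjusted p = 0.059). Of 9 bipolar and horizontal cell genes 0 were higher and 2 lower. These were the bipolar gene Cabp5 (log2 fold change -0.31, limma adjusted p = 0.024, but -0.18 and 0.316 with the GC trend removed) and Calb1. Calb1 is a calcium-binding protein of some amacrine cells and of horizontal cells, which also make neurofilaments. Calb1 had 847 and 747 against 1319 and 1301 (log2 fold change -0.72, limma adjusted p = 0.0056, but 0.087 and 0.794 with the GC trend removed). Of the transcription factors of horizontal cells on this list, Lhx1 overlapped between the conditions, Onecut1 had a log2 fold change of 0.17 and Onecut2 of -0.47, and none passed (limma, adjusted p = 0.713, 0.476 and 0.122). Of 7 rod genes 0 passed, with a median of 0.21, the largest log2 fold change at 0.51 for Sag, rod arrestin, and sums between 1944120 and 2450260 adjusted counts in all 4 samples.

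Of 7 genes of Müller glia and astrocytes, cells that surround ganglion cells and their axons, 0 were higher and 3 lower in objective day. Slc1a3, the glutamate transporter, Aqp4, the water channel, and Gfap, the glial filament protein, had log2 fold changes of -0.34, -0.44 and -0.47 (limma, adjusted p = 0.017, 0.0071 and 0.0097). With the GC trend removed Gfap kept its call, while Slc1a3 had -0.25 and Aqp4 -0.080 (limma, adjusted p = 0.117 and 0.683). Of 8 myelin and Schwann cell genes 0 passed, but the subjective day sample numbered 2 stood apart, with 2684 adjusted counts of Mbp against 1267 to 1367 in the other samples. Mouse retina itself is not myelinated, and this sample was also the lower of its condition for all 10 genes described above. Of 7 fibroblast genes 0 were higher and 1 lower, Lum (log2 fold change -0.74, limma adjusted p = 0.048, but -0.42 and 0.433 with the GC trend removed), and of 7 smooth muscle and pericyte genes, 6 extraocular muscle genes and 6 lymphocyte genes tested 0 passed.

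**Figure D5:**
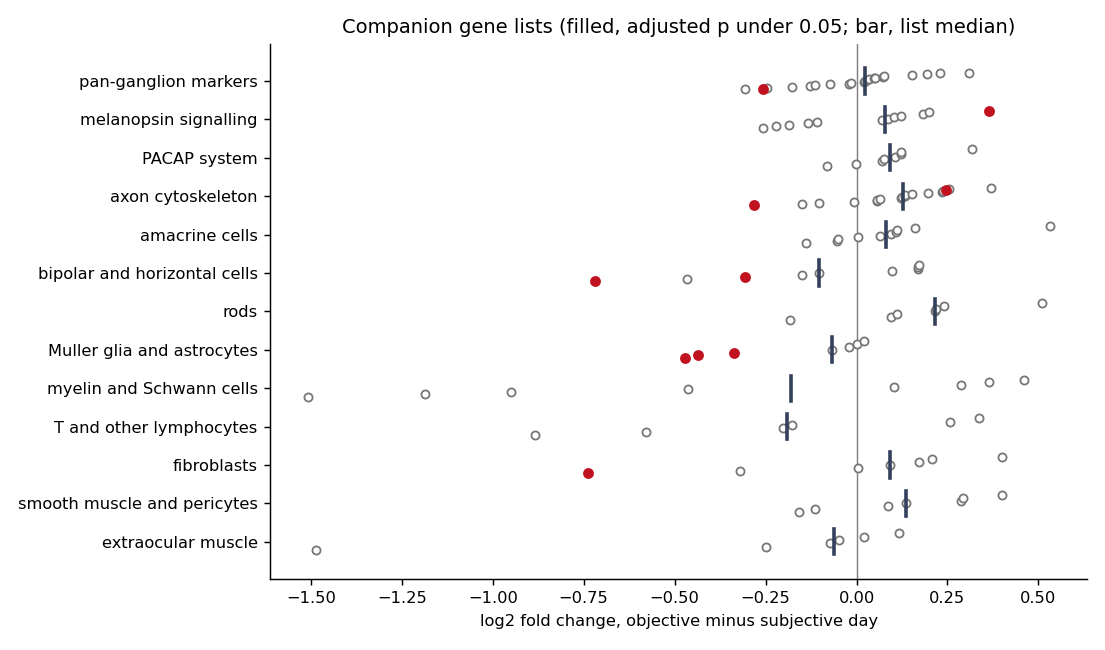
Log2 fold change, objective minus subjective day (x axis), of every tested gene of the 13 companion lists (y axis), with filled points for genes at an adjusted p under 0.05 and bars for list medians. The pan-ganglion list centres at 0.023 and the axon cytoskeleton list at 0.13, and the 3 filled points of the glial list lie below 0.

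Genes with the most similar pattern over the 4 samples were found for a gene of each role by the Euclidean distance between log2 values centred on their mean. For Opn4 they were Cars, Tada2a and Csnk1d, at distances from 0.014 to 0.015, and 1384 genes lay within 0.1. For Pou4f2 they were Lrrc2, Spg20 and Zfp703, at distances from 0.0095 to 0.011, with 776 genes within 0.1. For Nefh they were Fkbp2, Ccdc64 and Dpep1, at distances from 0.035 to 0.039, with 93 genes within 0.1. With 4 samples many genes share a pattern, and these names are a description only.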

How the data were processed

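RNA-seq libraries from 4 samples of mouse eye were analysed. According to the methods and the submitters' processing notes, polyadenylated RNA was sequenced as single reads on 1 lane, and the authors used CASAVA 1.8, TopHat2 2.0.9 with Bowtie2 2.1.0 against an Ensembl annotation, HTSeq and edgeR. The strand setting is not given in the sources used here. What the authors deposited is a signal for each gene in each sample, in the form of fractional counts described as adjusted gene counts. The values are not raw counts, so no count model was used, and their sums (33278400 to 35236800 per sample) are not the depth, which is unknown. The deposited columns of the authors' own comparison (fold change, expression level, p-value and adjusted p-value) were not used.

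Genes that reached 10 in 2 or more samples were compared on log2(value + 1) using limma 3.58.1 (R 4.3.3), with variances that follow mean expression and Benjamini-Hochberg adjustment at 0.05 over all 17784 genes. The samples are described as biological replicates, and with 2 per condition their number limits the precision. Position, length and GC content were taken from the principal transcript in GENCODE M21 (GRCm38), with GC content known for 98.6% of the genes tested, and the GC trend was removed by local regression with a span of 0.3 in each sample. The code was tested on simulated data. The genes and lists were chosen with earlier results of these data known. All 10 genes are named, and of each list the genes passing the test, otherwise those with the largest and smallest change, and direct partners of a named gene. Tfap2a, Lhx1, Onecut1, Onecut2, Mbp and the neurofilament ratios fall outside this rule or were chosen with their values in view, and lists of non-neuronal cells without a call are given by counts. Some list genes that the rule names are not reported here. The alternatives concerned scaling, filter, pseudocount, variance prior, GC content, the replicate number and each sample left out. Figures were drawn with matplotlib 3.10.9.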

Additional observations from a re-analysis of the deposited data

How the results depend on the processing

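Precision is limited by 2 samples per condition, and the sequencing depth is unknown. Over the 10 genes and all alternatives, 121 values kept their direction and side of the threshold, 9 passed the threshold that had not and 9 reversed. Both rescalings, both pseudocounts, the looser and the stricter filter and a variance prior without a trend called 0 of the 10 genes in limma, with 4, 4, 4, 4, 4, 3 and 0 of them at an unadjusted p under 0.05, against 3586 to 4744 of all genes in these fits (the stricter filter left out Adcyap1). For these settings other than the variance prior, the number of genes called stayed within 1.5 times of 1514.

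With a variance prior without a trend 0 genes were called (0 higher, 0 lower, 3586 at an unadjusted p under 0.05), and 0 of the companion genes against 10 (23 unadjusted). With the GC trend removed 163 genes were called (64 higher, 99 lower) and 2 companion genes. Leaving out each sample gave 664 to 2557 genes (36 to 866 higher, 604 to 1691 lower), 0 to 3 of the 10 genes, and 3 to 26 companion genes. The most genes were called without the subjective day sample numbered 1 and the fewest of all genes without the objective day sample numbered 2.

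The labels number the samples 1 and 2 in each condition without saying that equal numbers were processed together. Across genes, the deviations of the samples numbered 1 from their condition means correlated at 0.319. With 2 samples per condition, those numbered 2 give the same value. With the replicate block 3613 genes were called (1282 higher, 2331 lower), 37 companion genes and 4 of the 10 genes, namely Nefh, Nefm, Thy1 and Nefl (limma, highest adjusted p = 0.0495, for Nefl). With the GC trend removed and the replicate block together 548 genes were higher and 530 lower, and 2 of the 10 genes were called, Nefm and Nefh. The cause of these differences was not tested.

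With the GC trend removed the log2 fold change was 0.12 for Adcyap1 and -0.095 for Rbpms, with or without the block. Leaving out a sample gave -0.40 to 0.13 for Adcyap1, -0.026 to 0.12 for Pou4f1 and -0.055 to 0.13 for Pou4f2. Scaled to the 4 pan-ganglion markers Opn4 had 0.062 instead of 0.14, and scaled to Rbpms alone 0.12. With the GC trend removed, an alternative chosen after seeing the data for the ratios, the log2 differences were -0.35 for Nefl to Nefh, -0.33 for Nefl to Nefm and -0.015 for Nefm to Nefh.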
